A study of Mus musculus with 15 samples.

Results

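The genes of melanocytes and pigmentation form a group of 10 among the 23420 mouse genes of the deposited tables. They are Dct, Tyr, Tyrp1, Pmel, Mlana, Slc45a2, Mitf, Kit, Kitl and Ednrb, and each was taken by its symbol, with no threshold on its values. All 10 had a row of counts in each of the 15 libraries. At postnatal day 1 (P1) both tissues of the study, epidermis and tongue, were taken from newborn mice. The mice were wild type or carried the genotype that the labels write as Tmprss11a,b,c,d,e,f,g-/-, called knockout below. In these animals the 7 HAT/DESC genes, which encode membrane-anchored serine proteases of surface epithelia, had been targeted by multiplexed gene editing.

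Epidermis gave 3 wild-type and 4 knockout libraries, and tongue gave 4 of each genotype. For strain the labels name only the Tmprss11 genes. The sources used here do not give the coat colour, the parent strain, the number of edited lines or whether wild-type animals were littermates. Epidermis had been peeled from dermis after brief heating in EDTA, while tongue was used whole, so the tongue libraries hold connective tissue, vessels, nerves and muscle as well as epithelium. The labels also give A-numbers, here read as names of animals, which fall into 3 ranges (A32x, A34x and A38x) of unstated meaning.

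Melanocytes come from the neural crest, and those that populate the skin migrate to it and enter the epidermis and the hair follicles. The factor MITF switches on the enzymes and structural proteins of the melanosome, the organelle in which melanin is made. KIT, with its ligand from keratinocytes and other neighbouring cells, and the endothelin receptor EDNRB, with endothelins, guide the growth, survival and migration of the lineage. Mast cells also use KIT and MITF, and endothelial cells, glia and smooth muscle use EDNRB, so these members are not restricted to pigment cells.

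Positions of the genes refer to GRCm38 with GENCODE M21. The enzymes of melanin synthesis are Tyr (ENSMUSG00000004651, chr7:87424771-87493512), tyrosinase, which catalyses the rate-limiting step, Dct (ENSMUSG00000022129, chr14:118012790-118052244), dopachrome tautomerase, and Tyrp1 (ENSMUSG00000005994, chr4:80834123-80851719), tyrosinase-related protein 1. Pmel (ENSMUSG00000025359, chr10:128704195-128720238) encodes the protein of the fibrils on which melanin is laid down. Mlana (ENSMUSG00000024806, chr19:29697824-29708634) encodes a melanosome protein that is a classical melanocyte marker, and Slc45a2 (ENSMUSG00000022243, chr15:11000721-11029233) a melanosomal transporter. Mitf (ENSMUSG00000035158, chr6:97807052-98021349) encodes the transcription factor. Kit (ENSMUSG00000005672, chr5:75574916-75656722) and Ednrb (ENSMUSG00000022122, chr14:103814625-103844402) encode the receptors, and Kitl (ENSMUSG00000019966, chr10:100015630-100100416) the ligand of KIT.

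MITF is known to bind the hexamer CATGTG and the palindrome CACGTG. Promoter windows of 250 bases upstream of the annotated start (RefSeq, GRCm38.p6) were found for 7 of the 10 genes and were searched on both strands. CATGTG was present in the windows of 3 members, Dct, Tyr and Tyrp1, and in 12.3% of all 32851 windows. All 3 carried the longer stretch GTCATGTGCT, which contains the hexamer, on the strand of the gene. That stretch was in 0.155% of all windows and was singled out after the sequences had been seen. The sites are shown because the 3 genes that hold them are the 3 melanin enzymes and their levels are compared below. Each is printed 5′ to 3′ on the strand of the gene with CATGTG in capitals, at chr14:118052379-118052408 (minus) for Dct, chr7:87493516-87493545 (minus) for Tyr and chr4:80834155-80834184 (plus) for Tyrp1.
Dct: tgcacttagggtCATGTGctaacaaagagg
Tyr: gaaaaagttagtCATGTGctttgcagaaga
Tyrp1: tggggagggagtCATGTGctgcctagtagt

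The hexamer of this site begins at position -150 from the start in Dct, at -21 in Tyr and at -46 in Tyrp1. The Tyrp1 site lies inside the first exon of a longer GENCODE transcript, which starts at 80834123. The window of Dct held CATGTG again at -232, on the other strand, where it reads as its reverse complement. The complete windows of Dct (chr14:118052247-118052496, minus) and Tyr (chr7:87493513-87493762, minus) show where the sites stand, with CATGTG in either orientation in capitals.
Dct promoter: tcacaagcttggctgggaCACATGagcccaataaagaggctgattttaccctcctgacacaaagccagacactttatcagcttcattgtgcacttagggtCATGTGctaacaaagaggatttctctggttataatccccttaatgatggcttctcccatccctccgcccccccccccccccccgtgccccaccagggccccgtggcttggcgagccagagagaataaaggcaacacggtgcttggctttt
Tyr promoter: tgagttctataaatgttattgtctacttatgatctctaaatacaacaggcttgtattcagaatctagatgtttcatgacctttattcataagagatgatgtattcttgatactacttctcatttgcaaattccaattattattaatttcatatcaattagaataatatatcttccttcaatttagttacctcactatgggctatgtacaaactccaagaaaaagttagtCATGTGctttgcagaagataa

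No window of Mitf, Kit, Kitl or Ednrb held CATGTG, and CACGTG, which 6.02% of all windows hold, was in none of the members' windows. One of the 3 start sites of Mitf, with the window chr6:97991533-97991782 (plus), had the palindrome TGACGTCA at -153, the sequence bound by the cAMP-responsive factor CREB, and 1.55% of all windows had it. A match describes letters in a window, and binding was not measured.

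Total counts per library ranged from 10117819 to 17819195. Levels are given in CPM, counts relative to the library size after scaling by TMM factors, and means are followed by the SD. The share of counts on the mitochondrial ribosomal RNA genes was 35.5% to 40.8% in tongue and 20.8% to 22.8% in knockout epidermis. In wild-type epidermis it was 44.6% in replicate 1 and 20.1% and 23.8% in replicates 2 and 3, so replicate 1 stood apart. Of the 7 targeted genes, 6 were analysed here. In tongue their mean level was lower in the knockout for all 6, and the groups did not overlap for Tmprss11a, Tmprss11b, Tmprss11d, Tmprss11e and Tmprss11f. In epidermis the mean was lower for 5, and Tmprss11g was at 8.26 ± 1.89 CPM (n = 3) in wild type and 11.05 ± 5.76 CPM (n = 4) in the knockout. Reads of every targeted gene that was analysed remained in the knockout libraries. As checks of the tissue labels, the summed level of 6 epidermal keratinocyte genes was 31329 to 58066 CPM in epidermis and 505 to 784 CPM in tongue. The summed level of 7 skeletal muscle genes was 80 to 669.5 CPM in epidermis and 21836 to 45821 CPM in tongue.

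The 6 genes most restricted to pigment cells (Dct, Tyr, Tyrp1, Pmel, Mlana and Slc45a2) were expressed in all 7 epidermis libraries and close to 0 in the 8 tongue libraries. Their summed level was 76.4 ± 25.5 CPM (n = 3) in wild-type epidermis and 114 ± 31.5 CPM (n = 4) in knockout epidermis. In tongue it was 0.667 ± 0.200 CPM (n = 4) in wild type and 0.863 ± 0.185 CPM (n = 4) in the knockout. In counts, the 6 genes together had 440 to 2920 reads per epidermis library and 4 to 15 per tongue library. A whole-tissue measurement cannot tell fewer melanocytes from less RNA per melanocyte.

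Dct was the most counted pigment gene of epidermis. Its level was 27.5, 38.3 and 49.97 CPM in wild-type replicates 1, 2 and 3 and 79.9, 43.6, 59.2 and 37.8 CPM in knockout replicates 1 to 4. In tongue it had 10 reads in all 8 libraries together, and no library had more than 3. The difference between epidermis and tongue was larger than the spread in both genotypes. Here and below, tests between the tissues did not pair libraries by animal unless stated. The log2 fold change was 8.74 in wild type (SE 0.41, edgeR adjusted p = 2.42e-07) and 8.84 in the knockout (SE 0.43, edgeR adjusted p = 1.84e-08). Pooled over the libraries, the ratio of epidermis to tongue was 499 in wild type (exact 95% interval 195 to 1833, which covers counting error only) and 498 in the knockout (229 to 1358).

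Tyr was at 8.43, 12.3 and 14.7 CPM in wild-type epidermis and at 20.5, 15.1, 18.6 and 13.0 CPM in knockout epidermis. No read of Tyr was counted in any tongue library. Set against a floor of 3 counts over the tongue group, Tyr was at least 204-fold higher in epidermis in wild type and at least 300-fold higher in the knockout. It passed the test in both genotypes (edgeR adjusted p = 1.32e-05 and 2.26e-07).

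Pmel was at 9.33, 22.2 and 25.5 CPM in wild-type epidermis and at 35.3, 27.6, 37.9 and 26.1 CPM in knockout epidermis. Tongue libraries had 0 to 12 reads of it, with the highest counts, 8 and 12, in knockout replicates 3 and 4. The log2 fold change of epidermis over tongue was 6.25 in wild type (SE 0.42, edgeR adjusted p = 1.88e-06) and 6.26 in the knockout (SE 0.49, edgeR adjusted p = 6.80e-07). Pmel overlaps Cdk2 and Dgka, which lie on the opposite strand, and the sources used here do not give the strand setting of the counts. Reads of the overlapping parts therefore cannot be assigned with certainty. Those neighbours reached 755 and 1950 counts in a library.

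Tyrp1, Mlana and Slc45a2 were the rarer of the pigment genes. Over the 7 epidermis libraries Tyrp1 ranged from 1.69 to 10.1 CPM, Mlana from 1.28 to 3.61 CPM and Slc45a2 from 0.899 to 3.56 CPM. All 3 were higher in epidermis than in tongue. For Tyrp1 the log2 fold change was 3.60 in wild type (SE 0.50, edgeR adjusted p = 0.000204) and 4.67 in the knockout (SE 0.79, edgeR adjusted p = 0.000357). For Mlana it was 4.51 (SE 0.77, edgeR adjusted p = 0.000705) and 5.26 (SE 0.62, edgeR adjusted p = 1.55e-05). Slc45a2 had 102 reads in wild-type epidermis and 0 in wild-type tongue, at least 34.5-fold higher (edgeR adjusted p = 0.000554). In the knockout it had 175 reads in epidermis and 2 in tongue, a ratio of 68.3 (exact 95% interval 18.6 to 569).

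All 6 pigment genes were thus called higher in epidermis in both genotypes. Over all genes, 32% of 16577 were called higher in epidermis in wild type and 32.7% of 16398 in the knockout, and 63.6% and 63.8% were called in either direction. The reads in tongue were spread over the 6 genes in another way than in epidermis. Of the 78 reads in the 8 tongue libraries, 34 were of Pmel, 26 of Tyrp1, 10 of Dct, 6 of Mlana, 2 of Slc45a2 and 0 of Tyr. The share of Tyr was 15.3 ± 1.13% (n = 7) in epidermis. A count of 0 among 78 allows a share of up to 4.62% in tongue (upper bound of the exact 95% interval, counting error only). In tongue the 8 reads of Tyrp1 in knockout replicate 2 stood against 0 in knockout replicates 3 and 4, so the makeup differed between single libraries.

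**Figure D1:**
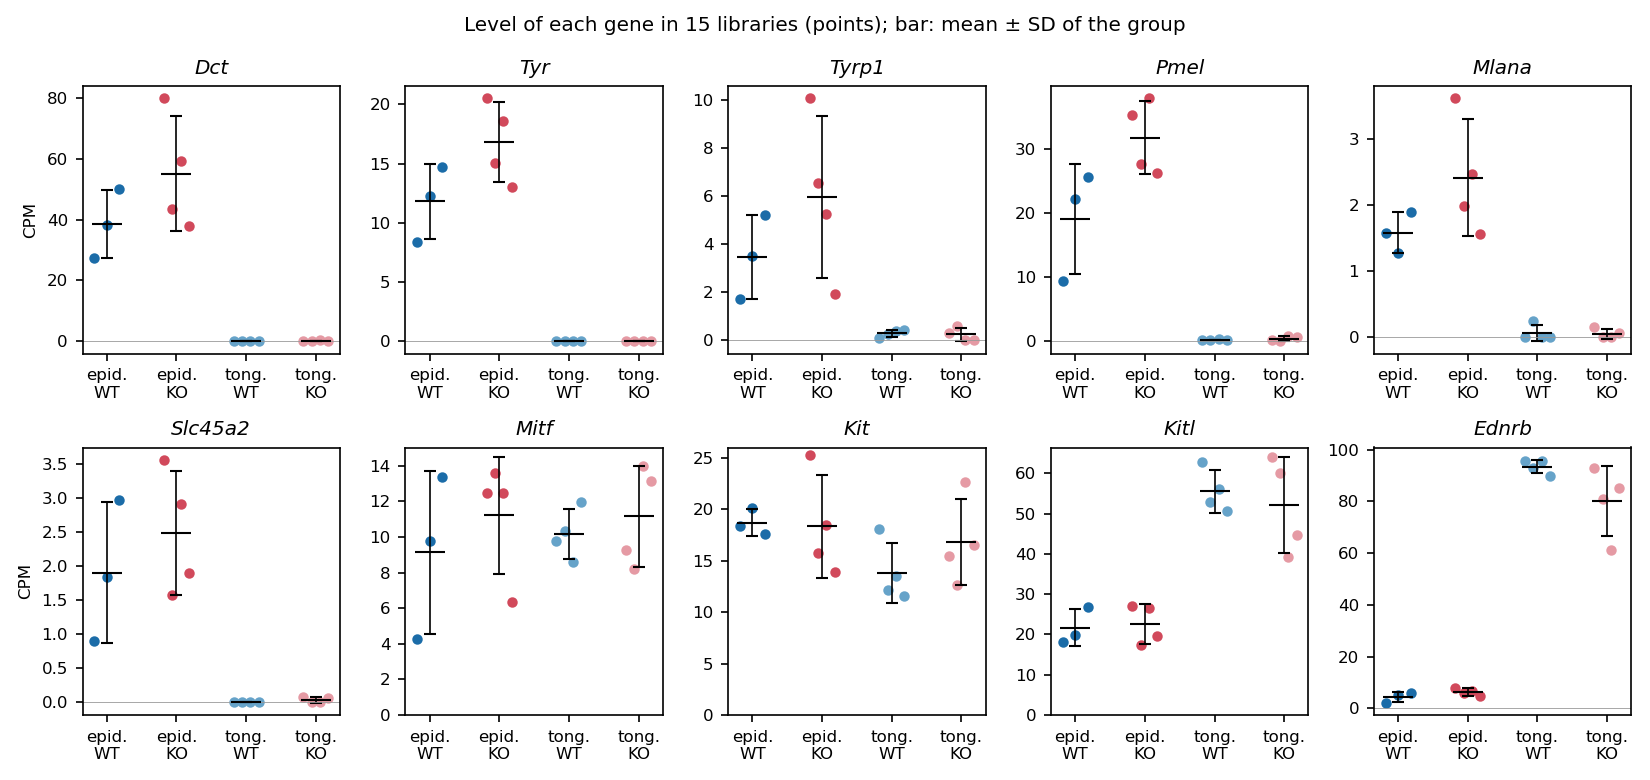
Level of each of the 10 genes in CPM (vertical axis, linear) in the 15 libraries, by tissue and genotype (epid., epidermis; tong., tongue; WT, wild type; KO, knockout). Points are libraries, long bars group means and whiskers the SD; the 6 pigment genes lie near 0 in tongue, Ednrb and Kitl are higher in tongue, and Mitf and Kit overlap between the tissues.

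Within epidermis the makeup of the pigment signal was similar between libraries while its amount was not. Dct made up 49.1 ± 3.76% of the reads of the 6 genes (n = 7), Pmel 26.5 ± 4.43%, Tyr 15.3 ± 1.13%, Tyrp1 4.68 ± 1.63%, Slc45a2 2.24 ± 0.43% and Mlana 2.14 ± 0.51%. The level of Dct varied over the 7 libraries with an SD of 0.50 on the log2 scale, whereas the log2 ratio of Tyr to Dct varied with an SD of 0.15. The ratio of Mlana to Dct had an SD of 0.24, that of Slc45a2 to Dct 0.30 and that of Pmel to Dct 0.36. Tyrp1 was the least tightly coupled of the 6, and its ratio to Dct had an SD of 0.55. Among the other members the SD of the ratio to Dct was 0.27 for Ednrb, 0.32 for Kitl and 0.41 for Mitf and for Kit. A low SD was thus not particular to the pigment genes. These ratios are descriptions over 7 libraries that share their scaling factors.

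**Figure D2:**
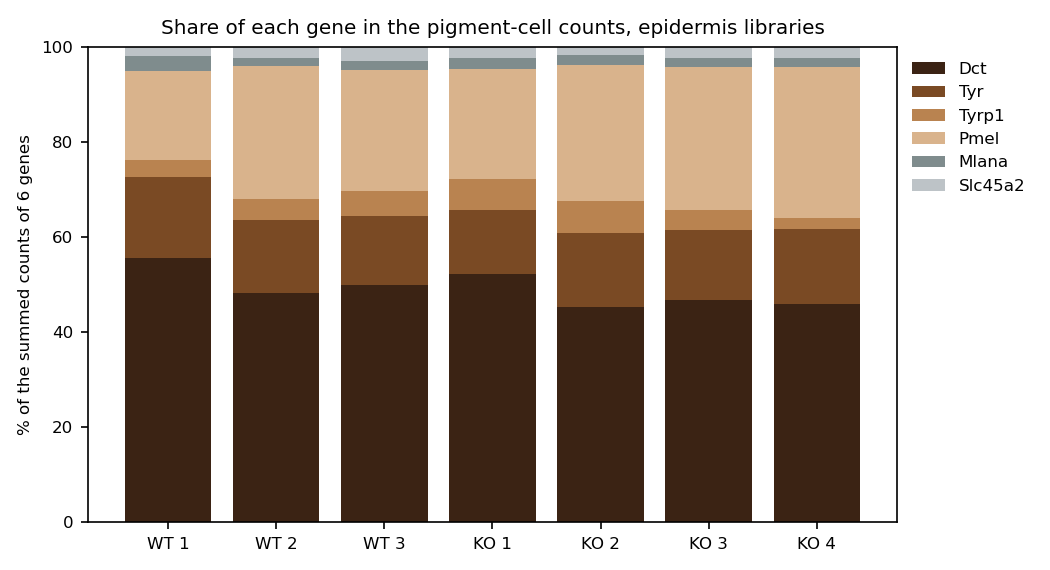
Share of each of the 6 pigment genes in their summed counts (vertical axis, percent) in the 7 epidermis libraries (WT, wild type; KO, knockout; replicate numbers on the horizontal axis). Dct holds 45.2% to 55.7% of the counts in every library, and Tyrp1 ranges from 2.31% to 6.79%.

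Per kilobase of exon, so that genes could be compared, Pmel had the highest level in epidermis, at 11.5 CPM per kilobase over the 7 libraries, followed by Dct at 8.15. The length was the union of all annotated exons of a gene, which can exceed that of the transcripts present. In CPM the order was the reverse, with Dct at 48.0 and Pmel at 26.3. The order of Pmel and Dct thus rests on that length, and the reads of Pmel include its overlapping parts. Kitl stood at 3.76 CPM per kilobase, and the other 7 members lay between 0.750 (Slc45a2) and 2.08 (Kit). In tongue the order was led by Ednrb at 20.3 CPM per kilobase and Kitl at 9.10, followed by Kit and Mitf, both at 1.72. The pigment gene with the highest level in tongue was Pmel, at 0.145 CPM per kilobase. The members thus ranked differently in the tissues, with melanosome genes first in epidermis and the receptor Ednrb first in tongue. Neighbours in the epidermal order such as Kit, Tyr, Mlana, Tyrp1 and Mitf, at 1.67 to 2.08 CPM per kilobase, lay closer together than the spread of their levels over libraries.

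Mitf did not follow the pigment genes between the tissues. It was at 4.27, 9.79 and 13.4 CPM in wild-type epidermis and at 12.5, 13.6, 12.5 and 6.33 CPM in knockout epidermis. In tongue it was at 9.76, 10.3, 8.58 and 11.9 CPM in wild type and at 9.28, 8.20, 14.02 and 13.1 CPM in the knockout. The tissues overlapped in both genotypes. The log2 fold change of epidermis over tongue was -0.11 in wild type (SE 0.32, edgeR adjusted p = 0.774) and 0.03 in the knockout (SE 0.26, edgeR adjusted p = 0.921). The sign of both changed under other settings, for example to 0.20 in wild type without epidermis replicate 1 and to -0.03 in the knockout with the RLE scaling. The counts sum all transcripts of Mitf, whose alternative starts include one used by melanocytes and others used elsewhere, and could not separate them.

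The levels of Kit overlapped between the tissues. It was at 18.4, 20.1 and 17.6 CPM in wild-type epidermis and at 25.3, 15.7, 18.5 and 13.9 CPM in knockout epidermis. In tongue it was at 18.1, 12.1, 13.5 and 11.6 CPM in wild type and at 15.5, 12.7, 22.7 and 16.6 CPM in the knockout. In wild type the log2 fold change of epidermis over tongue was 0.46 (SE 0.18, edgeR adjusted p = 0.0518), which missed the threshold of 0.05. With the animal as a block it was 0.60 and passed (edgeR adjusted p = 0.008635). That value rests on the libraries of A383 and A384, the only wild-type animals that gave both tissues. Kit also passed without tongue replicate 1 (0.61, edgeR adjusted p = 0.0103) and without epidermis replicate 1 (0.46, edgeR adjusted p = 0.0291). In the knockout the log2 fold change was 0.16 (SE 0.23, edgeR adjusted p = 0.578).

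Markers of mast cells, which share Kit and Mitf with melanocytes, were far higher in tongue. Their summed level over 7 genes was 3.14 ± 2.27 CPM (n = 3) in wild-type epidermis and 136 ± 15.1 CPM (n = 4) in wild-type tongue. Cpa3, carboxypeptidase A3 of mast cell granules, was at 0.567 ± 0.752 CPM in wild-type epidermis and 44.2 ± 5.43 CPM in wild-type tongue. The mast cell chymase gene Cma1 was at 0.786 ± 0.952 and 34.8 ± 5.13 CPM. All 6 mast cell genes that were tested were called lower in epidermis in both genotypes, as were 31.6% of all genes in wild type and 31.1% in the knockout. Ms4a2 was at 0 in wild-type epidermis. The part of mast cells in the levels of Kit and Mitf in tongue was not tested.

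Ednrb had the largest difference in favour of tongue among the 10 genes. It was at 2.13, 5.07 and 5.84 CPM in wild-type epidermis and at 8.07, 5.80, 6.56 and 4.65 CPM in knockout epidermis. In tongue it was at 95.5, 92.8, 95.6 and 90.0 CPM in wild type and at 93.0, 80.9, 61.1 and 85.3 CPM in the knockout. The tissues did not overlap in either genotype, as was the case for 65.7% of all genes tested in wild type and 58.5% in the knockout. The log2 fold change of epidermis over tongue was -4.35 in wild type (SE 0.28, edgeR adjusted p = 1.62e-06) and -3.64 in the knockout (SE 0.21, edgeR adjusted p = 5.79e-08).

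Kitl, the ligand of KIT, was also higher in tongue. It was at 18.2, 19.9 and 26.8 CPM in wild-type epidermis and at 27.1, 17.3, 26.6 and 19.7 CPM in knockout epidermis. In tongue it was at 62.8, 52.8, 56.0 and 50.6 CPM in wild type and at 64.1, 60.2, 39.3 and 44.7 CPM in the knockout. The lowest tongue library lay above the highest epidermis library. The log2 fold change of epidermis over tongue was -1.33 in wild type (SE 0.17, edgeR adjusted p = 0.000115) and -1.17 in the knockout (SE 0.22, edgeR adjusted p = 0.000536). Called lower in epidermis were 31.6% of all genes in wild type and 31.1% in the knockout, and the 2 of 10 members called lower were not above that share.

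**Figure D3:**
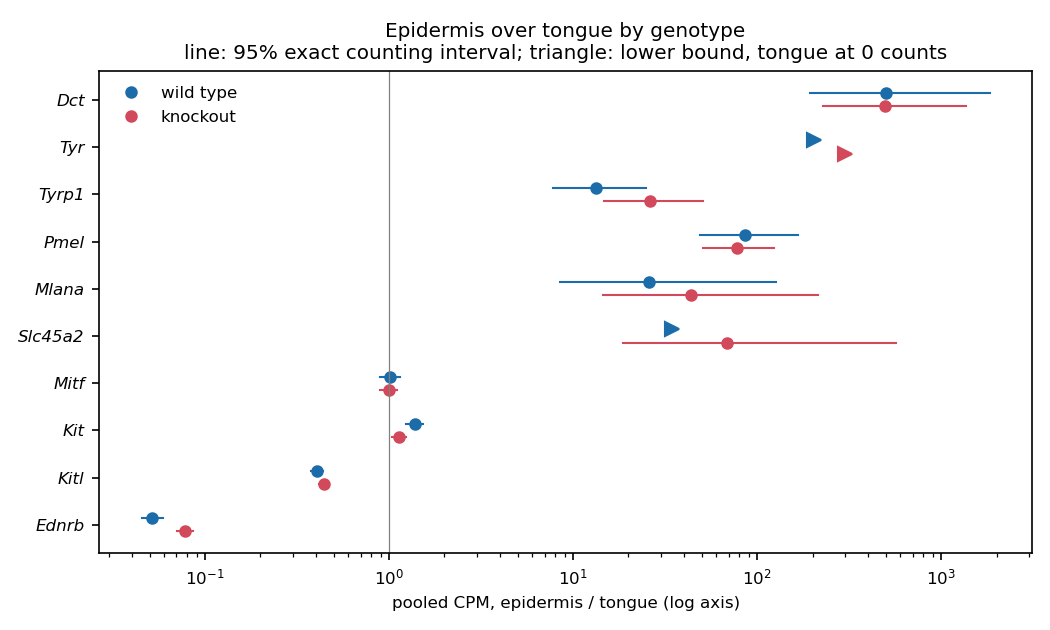
Ratio of epidermis to tongue in pooled CPM (horizontal axis, log scale) for the 10 genes in wild type and knockout. Points are ratios with exact 95% counting intervals, triangles are lower bounds where tongue had 0 counts; the 6 pigment genes lie above 10, Mitf and Kit between 0.996 and 1.38, and Kitl and Ednrb below 1.

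Other cell types known to use EDNRB or to make KIT ligand differed between the tissues too. The summed level of 7 endothelial genes was 4.08 ± 1.18 CPM (n = 3) in wild-type epidermis and 391 ± 39.6 CPM (n = 4) in wild-type tongue, with Pecam1 at 1.29 ± 0.187 and 124 ± 8.29 CPM. The 9 genes of Schwann cells and neural crest summed to 260.2 ± 31.1 CPM in wild-type epidermis and 252 ± 10.5 CPM in wild-type tongue. In epidermis that sum was made mostly of Erbb3, a receptor also found in epithelia, at 219 ± 29.6 CPM. In wild-type tongue the largest part was Pmp22, at 137 ± 5.60 CPM, against 1.35 ± 0.463 CPM in wild-type epidermis. The similar sums were thus led by different genes. The glial gene S100b was at 0 in wild-type epidermis and at 4.48 ± 1.28 CPM in wild-type tongue. Of the 9 genes, 3 were called higher and 6 lower in epidermis in both genotypes, against 32% and 31.6% of all genes in wild type. The summed level of 7 fibroblast genes was 240 ± 131 CPM in wild-type epidermis and 5355 ± 423 CPM in wild-type tongue. The part of these cells in the levels of Ednrb and Kitl was not tested.

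The wider pathway was read from 37 further genes in 4 lists, of which 35 had a row. Among melanosome channels, receptors and enzymes, 4 of 6 tested genes were called higher and 1 lower in wild-type epidermis than in wild-type tongue. Over all genes, 32% were called higher and 31.6% lower in wild type, and 32.7% and 31.1% in the knockout. Slc24a5, a potassium-dependent sodium-calcium exchanger that affects skin colour, was at 6.24 ± 1.63 CPM in epidermis and 0.0807 ± 0.114 CPM in tongue (log2 6.13, SE 0.63). Gpnmb, a glycoprotein related to Pmel, differed by 3.79 (SE 0.33), the channel gene Trpm1 by 3.02 (SE 0.24) and the cystine transporter gene Slc7a11 by 1.28 (SE 0.24), all on the log2 scale. Cd63, a tetraspanin of endosomes in many cell types, was lower in epidermis (log2 -1.56, SE 0.31). In the knockout 5 genes were called higher and 1 lower. Oca2 and Gpr143 were too low to be tested, with 29 and 18 reads over the wild-type epidermis libraries.

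Genes of melanosome sorting and transport were mostly somewhat higher in epidermis, 10 of 17 being called higher and 2 lower in wild type, and 11 and 2 in the knockout. In either direction, 63.6% of all genes were called in wild type and 63.8% in the knockout. The largest differences in wild type were in Lyst, a regulator of lysosome-related organelles (log2 3.01, SE 0.21), in Rab38, which delivers cargo to melanosomes (2.14, SE 0.31), and in Hps1 (1.38, SE 0.27). Bloc1s6 and Rab32 were lower in epidermis, by log2 values of -0.999 (SE 0.13) and -0.93 (SE 0.34). These genes serve lysosome-related organelles in other cells as well, and their median log2 fold change was 0.58, against 0.03 over all genes tested.

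Of 6 transcription factors of the lineage, 3 were called higher and 2 lower in epidermis in each genotype. With 32% of all genes called higher and 31.6% lower in wild type, these counts do not set the list apart. Tfap2a (log2 3.32, SE 0.33), Lef1 (2.89, SE 0.18) and Snai2 (1.37, SE 0.18), which keratinocytes use too, were higher in wild-type epidermis. Zeb2 (-3.34, SE 0.18) and Pax3 (-1.20, SE 0.20), the latter also a factor of muscle precursors, were lower. Sox10, which marks melanocytes and glia alike, was at 2.00 ± 0.534 CPM (n = 3) in wild-type epidermis and 1.90 ± 0.409 CPM (n = 4) in wild-type tongue and was not called (log2 0.10, SE 0.31, edgeR adjusted p = 0.791).

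The ligands and receptors showed opposite directions for the endothelins. Edn3, the endothelin that is essential for the melanocyte lineage, was at 0.140 ± 0.105 CPM (n = 3) in wild-type epidermis and 12.1 ± 2.28 CPM (n = 4) in wild-type tongue (log2 -6.27, SE 0.43, edgeR adjusted p = 2.12e-06). Edn1 was higher in epidermis, at 8.35 ± 3.15 against 3.24 ± 0.708 CPM (log2 1.40, SE 0.31, edgeR adjusted p = 0.00332). Ece1, the enzyme that activates endothelins, was not called (log2 -0.06, SE 0.23, edgeR adjusted p = 0.847). Mc1r, the melanocortin receptor of melanocytes, had 113 reads over the wild-type epidermis libraries and 0 over the wild-type tongue libraries, and in the knockout 216 and 1. It was called higher in epidermis in both genotypes. Asip and Pomc were not analysed here.

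The knockout was then compared with wild type in epidermis, the tissue in which pigment genes were measurable. No gene of 16073 passed the threshold of 0.05 after adjustment (0% called). At an unadjusted edgeR p under 0.05 there were 187 genes, 1.16% of all tested, and none of the 10 members was among them. DESeq2 called 1 gene and limma-voom 0. The log2 fold changes of all 6 pigment genes were above 0, from 0.34 (Slc45a2) to 0.74 (Tyrp1), with a median of 0.54. Over all genes the median was 0.00 and 50.2% were above 0. Most lists of other cell types also lay above 0. All tested genes did so for mast cells (4, median 1.04), skeletal muscle (7, 1.25) and tongue epithelium (5, 0.63). The same held for endothelial (5, 0.47), fibroblast (6, 0.44) and Schwann cell and neural crest genes (5, 0.34). Of the hair follicle genes 10 of 11 were above 0, and of the keratinocyte genes 3 of 6. The 6 pigment genes mostly varied together and are not 6 separate observations.

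Pmel had the smallest p of the members, with 19.0 ± 8.56 CPM (n = 3) in wild type and 31.7 ± 5.74 CPM (n = 4) in the knockout. Its log2 fold change was 0.71 (SE 0.32, edgeR unadjusted p = 0.0546, adjusted p = 0.9998). It was the only member whose groups did not overlap, the lowest knockout library being at 26.1 CPM and the highest wild-type library at 25.5 CPM. Groups did not overlap for 2.2% of all genes tested, and 1.26% were higher in every knockout library. Dct was at 38.6 ± 11.2 CPM in wild type and 55.1 ± 18.8 CPM in the knockout (log2 0.49, SE 0.30). Tyr was at 11.8 ± 3.17 and 16.8 ± 3.38 CPM (log2 0.48, SE 0.26). For both, the groups overlapped when all libraries were read together.

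Wild-type and knockout libraries of the same number were also read as 3 pairs, which no label states. The first pair lies within the range A32x and the third within A38x. The second joins a wild-type library of A38x to a knockout library of A34x. Deviations of the paired libraries over all genes correlated at 0.65, 0.18 and 0.50. The pairing was taken from these same data, so the values by pair depend on that choice. The knockout library was the higher in 3 of 3 pairs for Dct, Tyr, Tyrp1, Pmel, Mlana and Ednrb. Of all genes tested, 10.3% were higher in the knockout library of every pair. The size differed between pairs. Pmel was at 9.33 and 35.3 CPM in the first, 22.2 and 27.6 CPM in the second and 25.5 and 37.9 CPM in the third, wild type before knockout. Tyrp1 was at 1.69 and 10.1, 3.48 and 6.55, and 5.18 and 5.22 CPM. Slc45a2, at 0.899 and 3.56, 1.84 and 1.57, and 2.97 and 2.91 CPM, was higher in the knockout in the first pair alone. With the replicate number as a block, knockout replicate 4 having no partner, the log2 fold changes of the 6 genes ran from 0.45 (Slc45a2) to 1.05 (Tyrp1, SE 0.50) with a median of 0.66. Pmel was at 0.87 (SE 0.32, edgeR unadjusted p = 0.02515, adjusted p = 0.9997) and was the only member at an unadjusted p under 0.05, as were 1.98% of all genes tested. No gene was called with the block.

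None of the other members was called either. Tyrp1 differed by 0.74 (SE 0.55), Mlana by 0.58 (SE 0.39), Slc45a2 by 0.34 (SE 0.47) and Ednrb by 0.49 (SE 0.38) on the log2 scale. Mitf differed by 0.26 (SE 0.39), Kitl by 0.04 (SE 0.24) and Kit by -0.05 (SE 0.23).

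The size of the difference in the pigment genes moved with single libraries. Wild-type replicate 1, the library with the high share of mitochondrial ribosomal RNA, was the lowest of the 7 for 5 of the 6 genes, and Mlana was lowest in wild-type replicate 2. Knockout replicate 1 was the highest for 5 of the 6, and Pmel was highest in knockout replicate 3. With each of the 7 libraries left out in turn, all 6 genes stayed above 0, and their median log2 fold change ran from 0.32 without knockout replicate 1 and 0.34 without wild-type replicate 1 to 0.79 without wild-type replicate 3. Knockout replicate 1 and wild-type replicate 1 belong to the range A32x, where the summed level of the 6 genes was 49.4 CPM in the wild-type and 153 CPM in the knockout library. In the range A38x it was 79.4 and 100.2 CPM in the wild-type libraries and 126 and 82.4 CPM in the knockout libraries, so the groups overlapped. The range A34x held 1 knockout library, at 96.4 CPM, and no wild-type epidermis.

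In A38x alone, with 2 libraries a group, 4 of the 6 genes were above 0, the median was 0.18, and Tyrp1 (-0.28) and Slc45a2 (-0.01) were below 0. None was called, while 604 genes (3.83% of those tested) were called there. With the range as a block in all 7 libraries the 6 genes were above 0, with a median of 0.56.

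Markers of hair follicles, where melanocytes of mouse skin gather, and of dermal fibroblasts moved with these libraries. The summed level of 11 follicle genes was lowest in wild-type replicate 1, at 244 CPM, and highest in knockout replicate 1, at 1067 CPM. In the other 5 epidermis libraries it was 667 and 568 CPM in wild type and 968, 414 and 284 CPM in the knockout. Most of that sum was Krt17, at 324 ± 146 CPM in wild-type and 377 ± 219 CPM in knockout epidermis. Krt17 is not restricted to epidermis here and was at 131 ± 25.5 CPM in wild-type tongue. The summed level of 7 fibroblast genes was likewise lowest in wild-type replicate 1, at 132 CPM, and highest in knockout replicate 1, at 430 CPM. Knockout replicate 2 was close behind at 423 CPM, while its summed level of the 6 pigment genes was 96.4 CPM, against 153 CPM in knockout replicate 1. None of the 11 follicle genes or of the 7 fibroblast genes was at 0 throughout an epidermis group. The order of the libraries was not the same throughout, since knockout replicate 3, second for Dct and Tyr, was at 414 CPM for the follicle genes. The part of follicle or dermal tissue in the levels of the pigment genes was not tested.

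**Figure D4:**
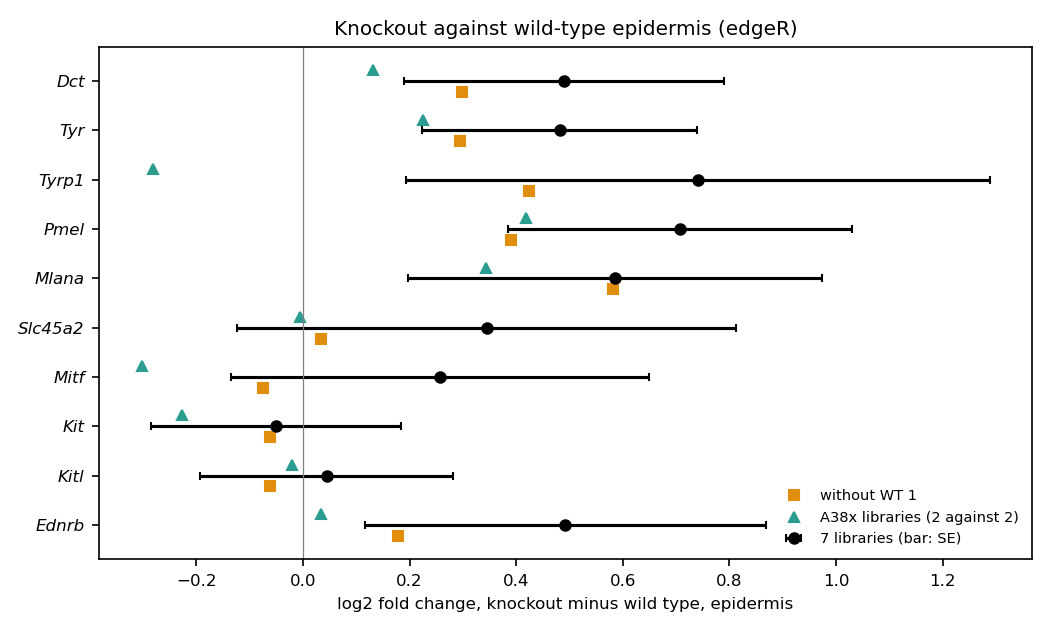
Log2 fold change of knockout over wild-type epidermis (horizontal axis) for the 10 genes in 7 libraries (circles, bars are the SE), without wild-type replicate 1 (squares) and in the 2 against 2 libraries of the range A38x (triangles). The 6 pigment genes lie between 0.34 and 0.74 with all libraries and lie nearer to 0 in most of the values of the other 2 fits shown.

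In tongue, 2 of 15741 genes were called between the genotypes (0.0127%), and none was a member. The 6 pigment genes were too low to be tested there. Ednrb had the smallest p of the 4 tested members, at 93.5 ± 2.65 CPM (n = 4) in wild type and 80.1 ± 13.6 CPM (n = 4) in the knockout (log2 -0.22, SE 0.12, edgeR unadjusted p = 0.0875, adjusted p = 0.939). The groups overlapped, and the lowest value, 61.1 CPM, came from knockout replicate 3. Kit differed by 0.28 (SE 0.20), Mitf by 0.13 (SE 0.19) and Kitl by -0.09 (SE 0.15) on the log2 scale, and none was called.

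The difference of the knockout effect between the tissues was tested for all 10 members, and none was called. Values are given for 4 of them, since the 6 pigment genes had at most 12 reads of a gene in a tongue library. The difference was 0.70 on the log2 scale for Ednrb (SE 0.33, edgeR unadjusted p = 0.0520, adjusted p = 0.99996), with the larger value in epidermis, and no gene of 17935 was called. At an unadjusted edgeR p under 0.05 there were 299 genes (1.67%), and DESeq2 called 1. The difference was 0.16 for Kitl (SE 0.28), 0.14 for Mitf (SE 0.44) and -0.31 for Kit (SE 0.31). In the 4 pathway lists no gene was called between the genotypes in either tissue. In epidermis all 7 tested genes for channels, receptors and enzymes lay above 0, with a median of 0.17. The 3 tested genes for ligands, receptors and their processing did so too (median 0.33). Of the transport genes 10 lay above and 7 below 0 (median 0.07), and of the transcription factors 2 above and 4 below (median -0.06). Over all genes tested 50.2% lay above 0. Among the transport genes the largest difference was in Mlph, which links melanosomes to the motor myosin Va (log2 0.52, SE 0.32).

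By likeness of profile, the genes nearest to Dct over the 15 libraries were Gata3, Irx4, Ccer2, Pla2g2f and Rdh1. The measure was the root mean square difference of log2(CPM + 0.5), centred on each gene's mean, over 15736 genes with a mean of at least 1 CPM, and it ran from 0.40 to 0.49 for these 5. Gata3 was at 68.2 CPM in epidermis and 0.253 CPM in tongue. All 5 were high in epidermis, at 26.4 to 422 CPM, and low in tongue, at 0.0189 to 5.71 CPM. Tyr ranked 30, Pmel 36, Tyrp1 410, Slc45a2 573, Kit 6317, Mitf 8501, Kitl 12689 and Ednrb 15054 by the same measure. Mlana, with a mean under 1 CPM, was not ranked. Within the 7 epidermis libraries alone, an addition made after the data had been seen, Tyr was the nearest of 14873 genes to Dct, with a difference of 0.14. Next came Cldn8, Alcam, Smim1 and Sema5a, at 0.14 to 0.16. Slc45a2 ranked 15, Ednrb 29, Mlana 31, Kitl 143, Pmel 300, Mitf 563, Kit 870 and Tyrp1 1869. In the other direction Dct ranked 5 from Tyr. With 7 libraries these ranks are a description of the samples at hand.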

How the data were processed

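RNA was measured in 15 libraries of epidermis and tongue. Per the labels' protocols, the SMARTer V4 low-input kit and then the TruSeq v2 kit were used for paired-end reads on a NextSeq500. Per the submitters' processing notes, STAR 2.5.2a and the build GRCm38.p3 (mm10) were used, along with DESeq2, edgeR and limma in roles not stated. The sources used here name neither a read counter nor its strand setting or annotation.

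Counts were deposited by the authors as whole reads for each Ensembl gene, and these were tested. They also deposited a signal table in which each count is divided by 1 constant per library, used here only to compare levels. Of 23422 entries, 2 transgene entries, with at most 0.00439% of a library's counts, were left out. Group and replicate number came from the titles.

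CPM values were computed from the counts with TMM factors over all 15 libraries. Tests used edgeR 4.0.16 (quasi-likelihood F test, robust, two-sided, filterByExpr with a minimum count of 10, TMM) in R 4.3.3 within each of 5 comparisons, with Benjamini-Hochberg adjustment over all genes tested and a threshold of 0.05. Alternatives were RLE scaling, removal of the mitochondrial ribosomal genes, no filter, DESeq2 1.42.0, limma-voom (limma 3.58.1), A-number blocks or subsets, a replicate block and leaving out each library. The pipeline was tested on simulated data. The members and lists were chosen with earlier results of these data known. The genes to be named were set as the members, up to 4 called genes of each pathway list (otherwise up to 3 of the highest level), the 5 nearest profiles and up to 2 genes of each marker list. The text goes beyond this and names up to 5 called genes of a pathway list. It also names Sox10, Ece1, Oca2 and Gpr143, which were not called or not tested between the wild-type tissues. A few further genes (Mlph, S100b and Ms4a2) were named after their values were seen, and 1 gene of a marker list is not reported here.

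Read as animals, the A-numbers gave 9 animals, of which 6 gave both tissues. The tissue comparison was thus paired by animal in full in the knockout and in part in wild type. The main fits left this pairing out, and the animal entered as a block only in an alternative. Between genotypes in epidermis, deviations from the group means correlated at 0.65, 0.18 and 0.50 over the 3 same-numbered pairs. Libraries of different numbers ran from -0.64 to 0.43. Wild-type replicate 2 correlated more with knockout replicates 3 (0.43) and 4 (0.34) than with knockout replicate 2. The numbers were taken to pair these libraries from the same data, and no label states a pairing. In tongue the correlations were 0.58, 0.11, -0.14 and 0.24, and the numbers were not taken as pairs. No other label says that libraries of a group came from separate animals, so the p-values measure only the spread between these samples, which may be technical. Depth of 10117819 to 17819195 counts per library makes 3 counts over a group, the floor used here, worth about 0.0444 to 0.0626 CPM.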

Additional observations from a re-analysis of the deposited data

Results flagged for a closer look

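Of 27 groups of 4 libraries that were examined, 3 had a library far from the other 3 by Dixon's criterion. For continuous, normally distributed values chance alone flags about 1 group in 20. That rate does not hold for counts of a few reads, as in the tongue groups below. Dct was at 0.298 CPM in replicate 3 of knockout tongue, from 3 reads, against 1 read in each of the other 3 libraries. Mlana was at 0.242 CPM in replicate 2 of wild-type tongue, also from 3 reads, with 0 in the other 3. Mitf was at 6.33 CPM in replicate 4 of knockout epidermis, below the 12.5 to 13.6 CPM of the other 3.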

How the results depend on the processing

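The 6 pigment genes were called higher and Ednrb and Kitl lower in epidermis than in tongue, in both genotypes, under each of the 8 alternative settings and with each library left out, and no member was called between genotypes in any of these fits. The number of members called stayed at 8, except that Kit made it 9 in wild type under some settings. Kit was called with limma-voom (log2 0.49, adjusted p = 0.0366), in A38x alone (0.57, adjusted p = 0.00838) and without epidermis replicate 1 (0.46) or tongue replicate 1 (0.61). With the animal as the replicate block it was also called (0.60, edgeR adjusted p = 0.008635), and Mitf turned to 0.19 there. In wild type that block draws the difference from the same libraries as A38x alone, those of A383 and A384. The 2 settings are thus not separate. The block by replicate number turned Kit to 0.0291 between genotypes in epidermis. The blocks changed no other call of a member.

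Counts of called genes moved in the genotype comparisons. In epidermis DESeq2 called 1 gene, the A-number range as a block 1 and A38x alone 604, against 0. In tongue DESeq2 called 4 and A38x alone 15, against 2. For the difference between tissues DESeq2 called 1 and A38x alone 19, against 0, and leaving out each library gave 0 to 1, the 1 without knockout epidermis replicate 1. The causes were not tested.

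Values near 0 changed sign. Between genotypes in epidermis, A38x alone gave Tyrp1 -0.28, Slc45a2 -0.0062, Mitf -0.30 and Kitl -0.0211. Leaving out libraries gave Mitf -0.0751 without wild-type replicate 1 (range -0.0751 to 0.64). Kitl was at -0.0615 and -0.0207 without wild-type replicates 1 and 2 and at -0.0715 and -0.0476 without knockout replicates 1 and 3 (range -0.0715 to 0.24). Kit was at 0.0246 and 0.0444 without knockout replicates 2 and 4 (range -0.27 to 0.0444). In tongue Kitl was at 0.0187 without knockout replicate 3 (range -0.21 to 0.0187). For the difference between tissues Mitf was at -0.72 in A38x and -0.18 without wild-type epidermis replicate 1 (range -0.18 to 0.51). Between wild-type tissues Mitf was at 0.16 in A38x and 0.20 without epidermis replicate 1 (range -0.50 to 0.20). Between knockout tissues Mitf was at -0.0347 with RLE scaling, -0.0346 with DESeq2, -0.0139 without the mitochondrial ribosomal genes and -0.55 in A38x. It was at -0.0172, -0.11 and -0.0288 without epidermis replicates 1, 2 and 3 and at -0.0514 and -0.0966 without tongue replicates 1 and 2 (range -0.11 to 0.24). Kit was at -0.30 in A38x and -0.0314 without epidermis replicate 1 (range -0.0314 to 0.32). Group means from the authors' deposited signal lay within 1 SD of those given for 37 of 40, the exceptions being Kit in wild-type epidermis (20.2) and Kitl (61.3) and Ednrb (103) in wild-type tongue.

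Depth limits the tongue values of the pigment genes, 4 to 15 reads a library in all, and their genotype difference in tongue could not be tested.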
